A study of Sus scrofa with 6 samples.

Results

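Glucocorticoid-induced transcripts are the RNAs that rise when cortisol, the stress hormone of the adrenal gland, activates the glucocorticoid receptor. In the cytosol this receptor is held by heat shock protein 90 and its co-chaperones, and after binding the hormone it moves to the nucleus and switches target genes on. In the heart, both the glucocorticoid and the mineralocorticoid receptor bind cortisol, and several target genes restrain growth signaling, inflammation or the use of glucose. The 10 transcripts described here are FKBP5, TSC22D3, DDIT4, ZBTB16, KLF9, KLF15, SGK1, CDKN1A, ERRFI1 and CEBPD. They were chosen by name with the sham and DAC values of the same samples already known, so their differences between these groups are given as a description without a test. All 10 were found among the 13288 genes of the table, each once, and all 10 passed the filter that left 11029 genes for testing. Several of them also respond to other stimuli, such as DDIT4 to low oxygen and CDKN1A to p53.

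RNA was sequenced from ventricular tissue of 3 sham and 3 DAC male Tibetan minipigs at week 12 after surgery, and their age is not given in the sources used here. In the DAC group the descending aorta was narrowed with sutures, whereas the sham group had the thoracotomy without constriction, so anesthesia and chest surgery were common to both groups. Each sample was 1 minipig, named here sham 1 to 3 and DAC 4 to 6, and no cortisol measurement or hormone treatment was used. Values are FPKM, fragment numbers scaled by transcript length and sequencing depth, which allow levels to be compared between genes. Differences are DAC minus sham in the mean of log2(FPKM + 1), with the standard error (SE) of a limma model fitted over all genes tested, and genes with P under 0.05 before adjustment are given as differentially expressed genes (DEGs). No gene had an adjusted P under 0.05 after Benjamini-Hochberg adjustment (limma, smallest 0.106), while 939 genes were DEGs without adjustment (8.51%), 358 upregulated (3.25%) and 581 downregulated (5.27%). With the mitochondrially encoded genes left out and the rest rescaled, these numbers were 502 and 408.

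Some features of the whole samples differed between the groups. Mitochondrially encoded genes held 24.0% to 25.3% of the summed FPKM in the sham minipigs, 27.1% and 27.2% in DAC 6 and DAC 4, and 32.8% in DAC 5. Of the 8 cardiomyocyte markers, 6 were in the table and none was at 0, with a summed level of 9273 to 9773 FPKM in sham and 8878 to 11208 FPKM in DAC. The 8 fibroblast markers summed to 532 to 617 FPKM in sham and 743 to 847 FPKM in DAC, without overlap. Of these, COL1A2, COL1A1, COL3A1 and LUM were upregulated DEGs. The other fibroblast markers overlapped between the groups and were no DEGs, with log2 differences of 0.24 (PDGFRA), 0.08 (DPT), -0.02 (TCF21) and -0.01 (DCN). The summed markers of endothelial cells (8 of 8 in the table), smooth muscle cells and pericytes (8 of 8), leukocytes (8 of 10), red blood cells (3 of 8) and adipocytes (6 of 8) overlapped between the groups. Among the endothelial markers CLDN5 and VWF were downregulated DEGs and KDR was an upregulated DEG. RYR2 of the cardiomyocyte markers was a downregulated DEG and CNN1 of the smooth muscle markers an upregulated DEG. KDR, RYR2 and CNN1 were DEGs in 9, 7 and 10 of 14 alternative settings, and none of them was without sham 1. KDR was also no DEG without sham 3, DAC 4 or DAC 6, RYR2 without sham 3, DAC 5 or DAC 6, and CNN1 without sham 2 or DAC 5. In pieces of tissue, a change in the number of cells of a type and a change in RNA per cell cannot be told apart, and the part of these features in the results was not tested.

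The mean FPKM was lower in the DAC group for 9 of the 10 transcripts, and SGK1 was the exception. On the scale of log2(FPKM + 1) the mean was lower in DAC for all 10, with SGK1 close to no difference (-0.02). All DAC values lay below all sham values in 6 of the 10, namely FKBP5, DDIT4, CDKN1A, ERRFI1, CEBPD and ZBTB16, and in none of the 10 did they lie above. Over all genes tested, the DAC values lay below in 8.91% and above in 6.01%, and the mean of log2(FPKM + 1) was lower in DAC in 53.4%. The median log2 difference of the 10 transcripts was -0.40, and it was -0.016 over all genes tested. It remained between -0.49 and -0.32 with each minipig left out in turn.

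**Figure D1:**
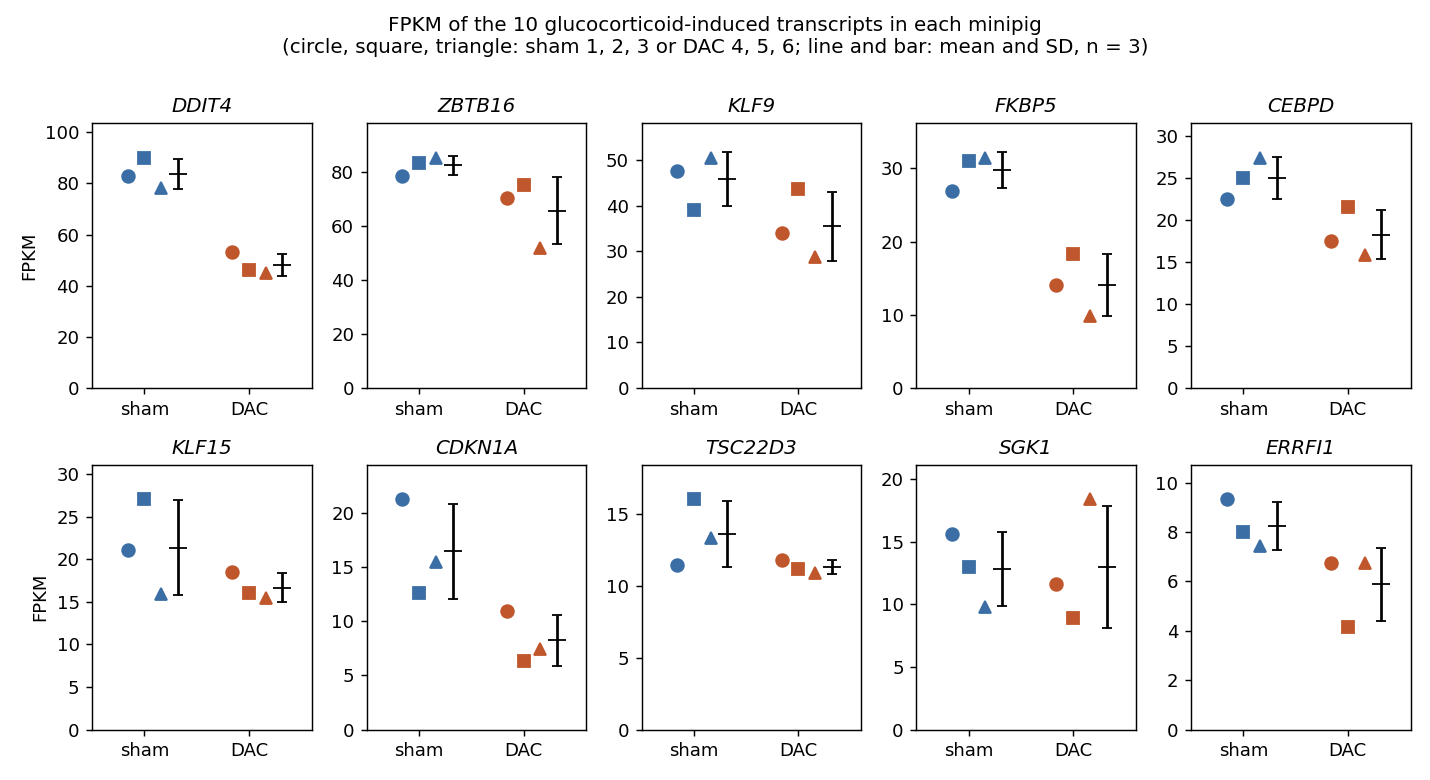
FPKM of each of the 10 transcripts on a linear axis from 0, with a point for each of the 6 minipigs and the mean and SD (n = 3) of each group beside them, ordered by the mean in sham. The DAC points of FKBP5 (9.85 to 18.4 FPKM) and DDIT4 (45.0 to 53.01 FPKM) sit well below their sham points, and those of SGK1 lie on both sides.

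FKBP5 encodes a co-chaperone of heat shock protein 90 that lowers the affinity of the glucocorticoid receptor for cortisol, and it is a widely used readout of the receptor's activity. The gene (ENSSSCG00000001549) lies on chromosome 7 from 31440821 to 31585350 on the minus strand of susScr11. Sham 1, 2 and 3 had 26.9, 31.0 and 31.5 FPKM of FKBP5 (mean 29.8 ± 2.49, SD, n = 3), and DAC 4, 5 and 6 had 14.1, 18.4 and 9.85 FPKM (mean 14.1 ± 4.26, SD, n = 3). The lowest sham minipig was thus above the highest DAC minipig, and the DAC mean was 52.7% lower. FKBP5 had the largest difference among the 10, with a log2 difference of -1.07 (SE 0.21) that ranged from -1.26 without DAC 5 to -0.85 without DAC 6. RefSeq places 4 further genes within the FKBP5 locus on this build, the protein-coding ARMC12, a pseudogene and a pair of long non-coding RNAs, and no other gene of the table overlaps it.

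DDIT4, CDKN1A and ERRFI1 encode brakes on growth. DDIT4 (also REDD1) inhibits the kinase complex mTORC1, and its gene (ENSSSCG00000031888) lies on chromosome 14 from 75117707 to 75119903 on the plus strand. In sham 1, 2 and 3, DDIT4 was at 83.1, 90.1 and 78.1 FPKM (mean 83.8 ± 6.02, SD, n = 3), against 53.01, 46.2 and 45.0 FPKM in DAC 4, 5 and 6 (mean 48.1 ± 4.31, SD, n = 3). The groups were clearly separated, with a mean 42.6% lower in DAC and a log2 difference of -0.79 (SE 0.11), the smallest SE among the 10. The DDIT4 locus overlaps that of ASCC1 on the other strand, and the library kit was not stated to keep the strand. ASCC1 was at 1.33 ± 0.224 FPKM in sham and 1.37 ± 0.112 FPKM in DAC (SD, n = 3), far below the level of DDIT4.

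CDKN1A (p21) inhibits cyclin-dependent kinases and lies on chromosome 7 from 32359455 to 32363761 on the plus strand (ENSSSCG00000001565). Its level was 21.2, 12.6 and 15.5 FPKM in sham 1, 2 and 3 (mean 16.4 ± 4.41, SD, n = 3) and 10.9, 6.37 and 7.41 FPKM in DAC 4, 5 and 6 (mean 8.22 ± 2.38, SD, n = 3). Sham 1 and DAC 4 stood highest in their groups, and the gap between the lowest sham and the highest DAC minipig was small beside the spread. The mean was 49.9% lower in DAC, a log2 difference of -0.92 (SE 0.24). ERRFI1, a feedback inhibitor of the epidermal growth factor receptor, lies on chromosome 6 from 68669153 to 68682624 on the minus strand (ENSSSCG00000035774) and was the least abundant of the 10. For ERRFI1, the sham minipigs had 9.33, 8.01 and 7.44 FPKM (mean 8.26 ± 0.968, SD, n = 3) and the DAC minipigs 6.75, 4.16 and 6.73 FPKM (mean 5.88 ± 1.49, SD, n = 3). DAC 5 was far below the other DAC minipigs, which came close to sham 3. The log2 difference of ERRFI1 was -0.45 (SE 0.18), and without DAC 5 it was -0.25.

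The largest group among the 10 encodes regulators of transcription. ZBTB16 (also PLZF), a zinc finger repressor, lies on chromosome 9 from 41639701 to 41836742 on the plus strand (ENSSSCG00000030095). It was at 78.8, 83.5 and 85.5 FPKM in sham 1, 2 and 3 (mean 82.6 ± 3.40, SD, n = 3) and at 70.5, 75.2 and 51.8 FPKM in DAC 4, 5 and 6 (mean 65.9 ± 12.4, SD, n = 3). The groups did not overlap, but DAC 5 came close to sham 1, and DAC 6 was far lower than the other DAC minipigs. The log2 difference of ZBTB16 was -0.34 (SE 0.15), and -0.18 without DAC 6. RefSeq lists a pair of long non-coding RNAs within the ZBTB16 locus.

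CEBPD, a basic leucine zipper factor of the CCAAT/enhancer binding family, lies on chromosome 4 from 79872421 to 79873989 on the plus strand (ENSSSCG00000032367). Sham 1, 2 and 3 had 22.5, 25.0 and 27.4 FPKM of CEBPD (mean 25.0 ± 2.48, SD, n = 3), and DAC 4, 5 and 6 had 17.5, 21.5 and 15.8 FPKM (mean 18.3 ± 2.92, SD, n = 3). DAC 5 was again the highest of its group and close to sham 1, with no overlap. The CEBPD mean was 26.9% lower in DAC, with a log2 difference of -0.44 (SE 0.14).

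KLF9 and KLF15 are Krüppel-like zinc finger factors, and KLF15 is known in heart and muscle for its control of amino acid and lipid metabolism. KLF9 (ENSSSCG00000021646, chromosome 1 from 223720445 to 223748226, minus strand) was at 47.7, 39.1 and 50.5 FPKM in sham 1, 2 and 3 (mean 45.8 ± 5.95, SD, n = 3). In DAC 4, 5 and 6, KLF9 was at 34.0, 43.65 and 28.7 FPKM (mean 35.4 ± 7.59, SD, n = 3), so that DAC 5 lay above sham 2. Its log2 difference was -0.37 (SE 0.18), and -0.23 without DAC 6. KLF15 (ENSSSCG00000036742, chromosome 7 from 53877813 to 53890546, minus strand) was at 21.1, 27.0 and 16.0 FPKM in the sham minipigs (mean 21.4 ± 5.54, SD, n = 3) and at 18.6, 16.0 and 15.4 FPKM in the DAC minipigs (mean 16.7 ± 1.67, SD, n = 3). Here the DAC minipigs were close together and sham 3 lay among them. The log2 difference of KLF15 was -0.31 (SE 0.19), and it was -0.14 without sham 2 and -0.50 without sham 3, so single sham minipigs decided its size.

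TSC22D3 (also GILZ), a leucine zipper protein that mediates part of the anti-inflammatory action of glucocorticoids, lies on chromosome X from 88171329 to 88233964 on the minus strand (ENSSSCG00000030241). It had 11.4, 16.0 and 13.3 FPKM in sham 1, 2 and 3 (mean 13.6 ± 2.29, SD, n = 3) and 11.8, 11.2 and 10.9 FPKM in DAC 4, 5 and 6 (mean 11.3 ± 0.470, SD, n = 3). Sham 1 lay within the range of the DAC group, and the log2 difference of -0.23 (SE 0.13) was -0.12 without sham 2. SGK1, a kinase that regulates ion channels and transporters and is also a target of the mineralocorticoid receptor, lies on chromosome 1 from 29625781 to 29753607 on the plus strand (ENSSSCG00000021443). For SGK1, the sham minipigs had 15.7, 13.0 and 9.83 FPKM (mean 12.8 ± 2.92, SD, n = 3), and the DAC minipigs had 11.6, 8.92 and 18.4 FPKM (mean 13.0 ± 4.89, SD, n = 3). The DAC group held both the lowest and the highest SGK1 value, and the log2 difference of -0.02 (SE 0.27) changed sign under other scalings, with 0.20 without DAC 5 and -0.29 without DAC 6.

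The 10 transcripts differed widely in abundance, and the mean FPKM of each over the 6 minipigs exceeded that of 55.5% to 96.0% of the genes tested. In sham the order of the means was DDIT4, ZBTB16, KLF9, FKBP5, CEBPD, KLF15, CDKN1A, TSC22D3, SGK1 and ERRFI1. Neighbours in this order overlapped in their sham values, except that ZBTB16 was separated from KLF9, KLF9 from FKBP5 and SGK1 from ERRFI1. In DAC, ZBTB16 came before DDIT4, with overlap since ZBTB16 was at 51.8 FPKM in DAC 6, FKBP5 moved from place 4 to place 6 behind CEBPD and KLF15, and CDKN1A moved from place 7 to place 9. The DAC values of FKBP5, CEBPD and KLF15 overlapped.

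The spread within a group was uneven. The coefficient of variation of FKBP5 was 8.36% in sham and 30.2% in DAC, and that of ZBTB16 was 4.12% in sham and 18.8% in DAC. The opposite was seen for KLF15, at 25.9% in sham and 10.01% in DAC, and for TSC22D3, at 16.9% in sham and 4.17% in DAC. The SD of log2(FPKM + 1) was larger in DAC for 7 of the 10 transcripts, and with 3 minipigs a group this was not tested.

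Within each group the minipigs took the same order in FKBP5, ZBTB16 and CEBPD. In all 3 transcripts sham 3 was the highest and sham 1 the lowest of the sham group, and DAC 5 was the highest and DAC 6 the lowest of the DAC group. KLF9 kept the DAC order, but sham 2 was its lowest sham minipig. SGK1 showed the exact reverse of the FKBP5 order in both groups, with DAC 6 the highest and sham 3 the lowest. Of all genes tested, 1.52% had the order of FKBP5 in both groups and 2.88% had its reverse. FKBP5 itself sets this order, so its own match holds by definition. Of the 38 other glucocorticoid-induced genes tested (described below), 0 had the order of FKBP5 and 2 had its reverse, so the order was not general among such genes. DDIT4 and KLF15 shared a further order, with sham 2 and DAC 4 the highest and sham 3 and DAC 6 the lowest, and TSC22D3 had the same highest minipigs. CDKN1A and ERRFI1 both peaked in sham 1 and DAC 4 and were lowest in DAC 5. DAC 6 was therefore the lowest DAC minipig for 7 of the 10 transcripts and the highest for SGK1. DAC 5, highest in the group of FKBP5, was also the minipig with the largest mitochondrial share of FPKM (32.8%), and its part in this order was not tested.

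**Figure D2:**
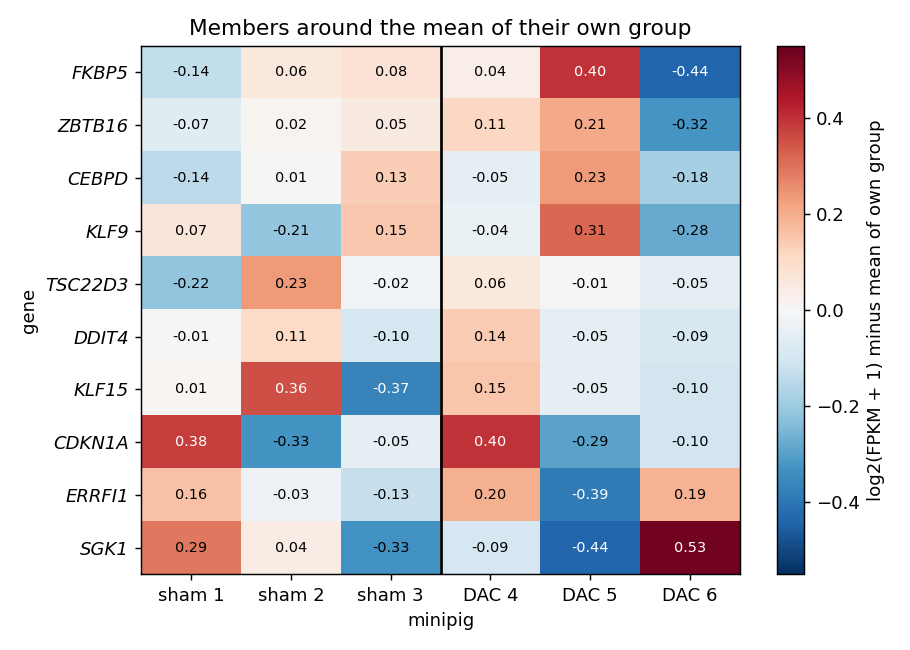
Deviation of each transcript (row) in each of the 6 minipigs (column) from the mean of its own group, in log2(FPKM + 1), with red above and blue below the mean. FKBP5, ZBTB16, CEBPD and KLF9 are highest in DAC 5 (FKBP5 0.40) and lowest in DAC 6 (FKBP5 -0.44), whereas SGK1 is at -0.44 in DAC 5 and 0.53 in DAC 6.

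Beyond these 10, a list of 48 other genes known to be induced by glucocorticoids in some tissue was compared. It was written with earlier results of these data known, so it is not independent evidence. Of the 48 genes, 40 were in the table and 38 were tested, since MT1A and RASD1 did not pass the filter. Among the 38, 8 were downregulated DEGs (21.1%, against 5.27% of all genes tested) and 1 was an upregulated DEG (2.63%, against 3.25%). The mean was lower in DAC for 29 of the 38 (76.3%, against 53.4%), and the median log2 difference was -0.20. With alternative settings, 6 to 10 genes of the list were downregulated DEGs, 6 of them with the mitochondrially encoded genes left out. In 9 of the 38 all DAC values lay below all sham values (23.7%, against 8.91%).

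ARRDC2, an arrestin domain protein, had the smallest P of this list. It was at 18.6, 24.0 and 22.3 FPKM in sham 1, 2 and 3 and at 9.51, 11.1 and 9.24 FPKM in DAC 4, 5 and 6, a log2 difference of -1.04 (SE 0.13, adjusted P = 0.198, limma). ANGPTL4, a secreted inhibitor of lipoprotein lipase, was at 9.75, 12.75 and 10.99 FPKM in sham and at 6.005, 4.50 and 6.40 FPKM in DAC, with a log2 difference of -0.88 (SE 0.15, adjusted P = 0.335, limma). The DAC values of both genes lay far below those of sham. CEBPB, the relative of CEBPD, was at 91.9, 86.7 and 77.9 FPKM in sham and at 68.8, 40.8 and 52.3 FPKM in DAC, with a log2 difference of -0.68 (SE 0.19, adjusted P = 0.5001, limma). CEBPB was thus the more abundant of the pair, and DAC 5 was its lowest minipig, whereas DAC 5 was the highest DAC minipig for CEBPD. CD163, a scavenger receptor of macrophages, had a log2 difference of -0.43 (SE 0.13, adjusted P = 0.508, limma), while the summed leukocyte markers, of which it is one, overlapped between the groups. GADD45B, a stress-induced growth arrest gene, had a log2 difference of -0.50 (SE 0.16, adjusted P = 0.512, limma). These 5 genes were downregulated DEGs under each of the 14 alternative settings.

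The other downregulated DEGs of the list, named after their values were seen, were TXNIP, TIPARP and BCL6, which were DEGs in 10, 7 and 6 of the 14 settings and in none of those without sham 1, sham 3 or DAC 6. The upregulated DEG, also named afterwards, was NFIL3, a repressor of transcription that acts with the circadian clock. NFIL3 was at 24.9, 14.5 and 13.3 FPKM in sham and at 27.7, 25.4 and 24.8 FPKM in DAC, so that sham 1 lay within the DAC range, and it was a DEG in 8 of the 14 settings and in 1 of the 6 that left out a minipig (sham 1). Classical targets in the list that did not pass the test, chosen after their values were seen, were PER1 (66.9 ± 7.22 FPKM in sham, 55.3 ± 12.3 FPKM in DAC, SD, n = 3), NFKBIA (78.1 ± 7.62 and 57.1 ± 20.9 FPKM), PDK4 (101 ± 15.9 and 72.8 ± 58.2 FPKM) and DUSP1 (50.5 ± 10 and 56.4 ± 12.4 FPKM).

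**Figure D3:**
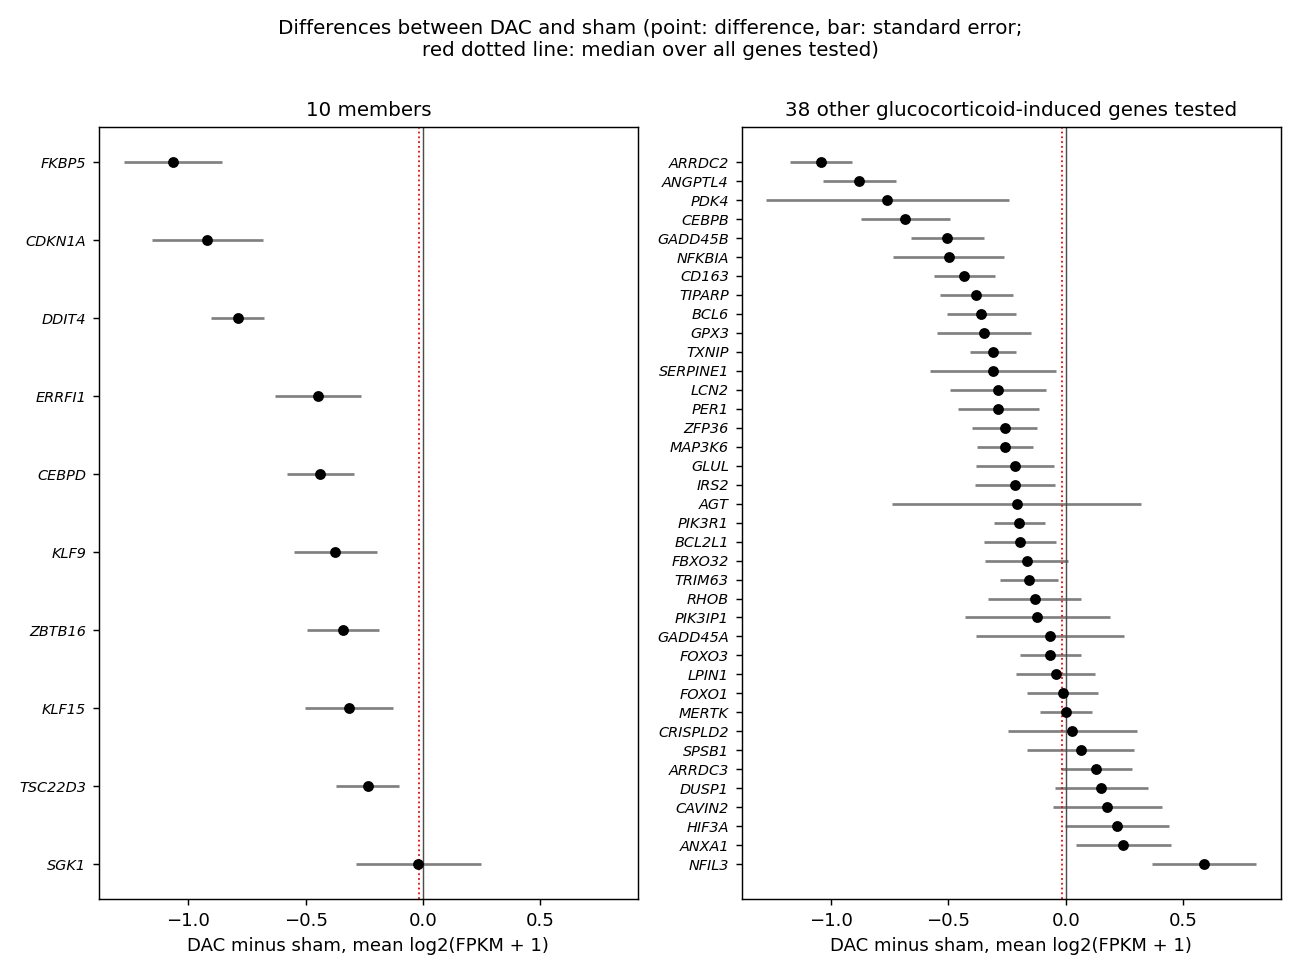
Difference between DAC and sham in mean log2(FPKM + 1) with its standard error for the 10 transcripts (left) and the 38 other glucocorticoid-induced genes tested (right), each sorted, with a dotted line at the median of all genes tested. The 10 run from -1.07 (FKBP5) to -0.02 (SGK1), and the other genes from -1.04 (ARRDC2) to 0.59 (NFIL3).

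Upstream of these targets, no gene of the list of receptors, converting enzymes, chaperones and coregulators was a DEG in either direction (0 of 25 tested of 28 listed, against 8.51% of all genes tested). A list of this size holds few DEGs at that share, so little can be read from the count. The median log2 difference of the list was -0.026. NR3C1, the glucocorticoid receptor, was at 5.75, 11.65 and 10.2 FPKM in sham 1, 2 and 3 and at 6.53, 11.5 and 8.49 FPKM in DAC 4, 5 and 6. Its groups overlapped almost fully, with a log2 difference of -0.03 and a 95% interval from -0.69 to 0.62, which does not show that the level was the same. NR3C2, the mineralocorticoid receptor, was at 10.6, 9.85 and 8.56 FPKM in sham and at 10.3, 9.19 and 10.8 FPKM in DAC, a log2 difference of 0.06 with a 95% interval from -0.22 to 0.34. HSD11B1, the enzyme that regenerates cortisol from inactive cortisone, was at 6.12, 10.04 and 8.33 FPKM in sham and at 6.185, 7.89 and 10.8 FPKM in DAC, with a log2 difference of 0.01 and a 95% interval from -0.52 to 0.55. HSD11B2, which inactivates cortisol, was looked for but had no row among the genes used here, so it was not analysed. FKBP4, the co-chaperone that competes with FKBP5 for the receptor complex, was at 90.8 ± 11.8 FPKM in sham and 83.2 ± 17.3 FPKM in DAC (SD, n = 3), with a log2 difference of -0.14 and a 95% interval from -0.54 to 0.27. NCOR1, a corepressor of nuclear receptors, had the smallest P of the list, with a log2 difference of -0.25 (SE 0.14, adjusted P = 0.642, limma).

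Of 18 inflammatory genes known to be repressed by glucocorticoids, 8 were in the table and 6 were tested, since IL6 and MMP9 did not pass the filter. Among the 6, 2 were upregulated DEGs (33.3%, against 3.25% of all genes tested) and 0 were downregulated DEGs (against 5.27%). With only 6 genes little can be read from these counts, and the median log2 difference was 0.11. CCL2, a chemokine that attracts monocytes, was at 8.32, 7.11 and 8.12 FPKM in sham and at 19.8, 8.84 and 18.6 FPKM in DAC, a log2 difference of 0.85 (SE 0.28, adjusted P = 0.522, limma). DAC 5 was close to sham for CCL2, and DAC 4 and DAC 6 were well above. VCAM1, an adhesion molecule of activated endothelium, had a log2 difference of 0.53 (SE 0.19, adjusted P = 0.553, limma). Both were DEGs in 10 of the 14 settings, not without DAC 4, and CCL2 also not without sham 2 or DAC 6 and VCAM1 not without sham 3 or DAC 5. None of the other 4 was a DEG, with log2 differences of 0.15 (ICAM1), 0.07 (CCL5), -0.11 (CXCL10) and -0.47 (NOS2), and each overlapped between the groups.

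Of the genes listed as closest family relatives of the 10, 24 were tested. Among them, 2 were downregulated DEGs (8.33%, against 5.27% of all genes tested), CEBPB and KLF10, and 2 were upregulated DEGs (8.33%, against 3.25%), CEBPA and KLF7. With so few genes these counts lie near the shares of all genes, and the median log2 difference was -0.13. CEBPB was a DEG in all 14 settings, CEBPA in 13, KLF7 in 11 (not without sham 1, DAC 4 or DAC 6) and KLF10 in 4 (in 1 of the 6 that left out a minipig, sham 1). KLF10 had a log2 difference of -0.32 (SE 0.13, adjusted P = 0.585, limma) and KLF7 one of 0.41 (SE 0.14, adjusted P = 0.546, limma). CEBPA was low, at 1.24 ± 0.0833 FPKM in sham and 2.09 ± 0.387 FPKM in DAC (SD, n = 3), with a log2 difference of 0.46 (SE 0.13, adjusted P = 0.5001, limma). The abundant relatives of KLF9 and KLF15 that were no DEG were KLF2 (log2 difference -0.11), KLF3 (0.12), KLF4 (-0.59, SE 0.35), KLF6 (-0.26), KLF11 (-0.44, SE 0.24) and KLF13 (-0.22). Those of TSC22D3 were TSC22D1 (0.15), TSC22D2 (-0.11) and TSC22D4 (-0.43, SE 0.24). CEBPZ (0.23) was also no DEG, and it was counted in the list for the symbol it shares in part with CEBPD.

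Lists for other inducers of the same transcripts had few members each. DEGs in either direction made up 12.5% of the tested p53-induced genes, 13.3% of the ATF4-induced stress genes and 14.3% of the hypoxia-induced genes, against 8.51% of all genes tested, and each list held 1 DEG in each direction. The p53-induced genes had 1 downregulated DEG, PLK3, and 1 upregulated DEG, POLH, among 16 tested, with a median log2 difference of -0.086. Of these, POLH was a DEG in all 14 settings and PLK3 in 10, not without sham 1 or DAC 5. For ATF4-induced stress genes there was 1 of each, ATF5 down and MTHFD2 up, among 15 tested entries, with a median of -0.033. The hypoxia-induced genes had ANGPTL4 down and HK2 up among 14 tested, with a median of -0.059. ATF5, MTHFD2 and HK2 were DEGs in 9, 7 and 8 of the 14 settings, and none of the 3 was without sham 1 or sham 3. Among 10 tested metabolic and channel genes linked to KLF15 in muscle, 4 were downregulated DEGs (40%, against 5.27% of all genes tested) and the median log2 difference was -0.28. These were SLC2A4, the insulin-dependent glucose transporter, with -0.41 (SE 0.14, adjusted P = 0.532, limma), and the branched-chain amino acid enzymes BCAT2, BCKDHA and BCKDHB, with log2 differences of -0.33, -0.28 and -0.28. SLC2A4 was a DEG in 12 of the 14 settings (not without sham 1 or sham 2), and the 3 enzymes were in 6 or 7. None of the 3 enzymes was a DEG without sham 1, sham 3 or DAC 4. The same held with quantile normalization and with the mitochondrially encoded genes left out. KLF15 itself overlapped between the groups.

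**Figure D4:**
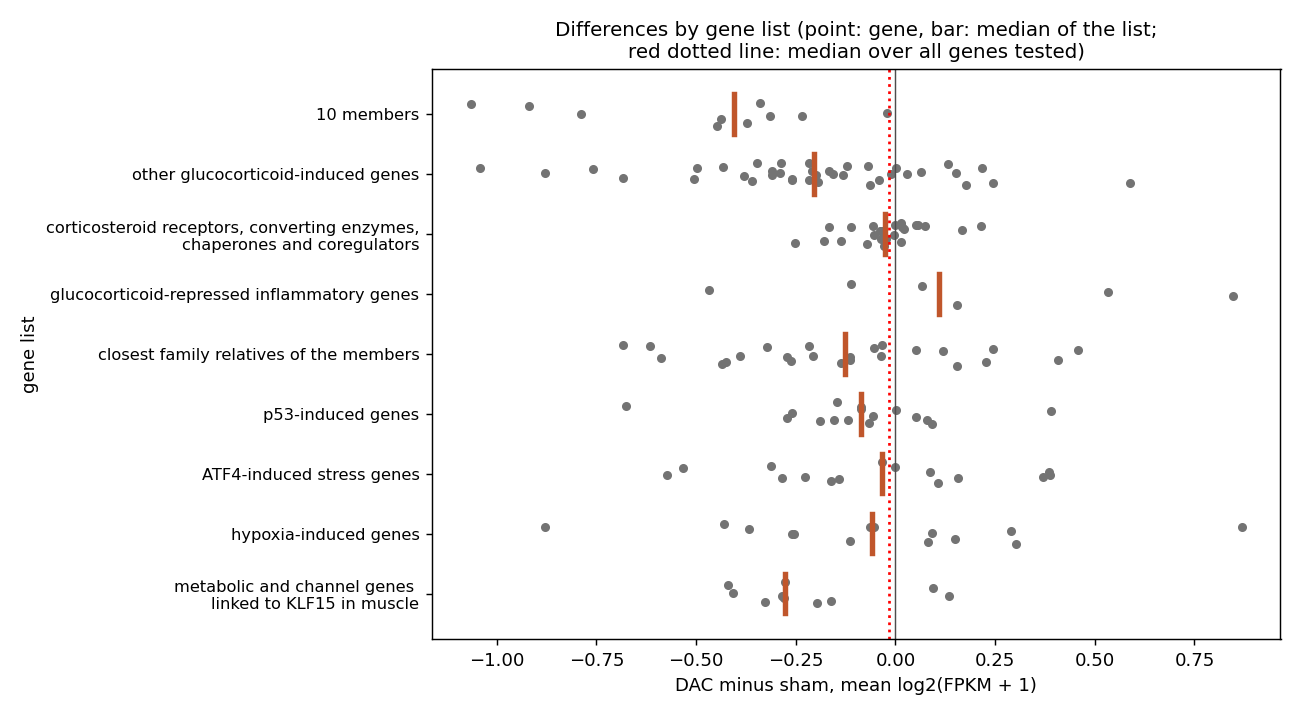
Difference between DAC and sham in mean log2(FPKM + 1) for every tested gene (point) of the 10 transcripts and of 8 gene lists, with a bar at each list's median and a dotted line at the median of all genes tested (-0.016). The receptors and their partners centre near the dotted line (-0.026), and the other glucocorticoid-induced genes lie lower (-0.20).

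The mean z-score of the 10 transcripts over the 6 minipigs was compared with every other gene tested to find those with the most similar pattern. The highest Pearson correlations were those of SCRIB (0.984), PRNP (0.984), PROSER1 (0.983), GSE1 (0.982) and MYH14 (0.981), and the most negative were those of SRGAP1 (-0.995), PPIL1 (-0.988), MYO5A (-0.986), EHBP1 (-0.986) and COL21A1 (-0.981). These values describe 6 points that share their libraries and fall into the sham and DAC groups, so a gene that separates the groups reaches a high correlation.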

How the data were processed

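RNA of ventricular tissue from 3 sham and 3 DAC minipigs was made into libraries with a NEBNext Ultra kit and sequenced on a HiSeq platform (paired ends). The authors deposited 1 table of FPKM, with 1 column per minipig. The submitters' processing notes list HISAT2 and susScr11, and the program that made the FPKM is not given in the sources used here. The depth is unknown, since low values showed no steps of whole reads: among the genes under 2 FPKM, at most 5 shared 1 ratio between any 2 samples. Precision therefore rests on the spread between minipigs. Empty symbols (520) were filled from a table of gene identifiers, and all 10 transcripts lie at their RefSeq position on Sscrofa11.1.

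With R 4.3.3 and limma 3.58.1, log2(FPKM + 1) was compared between the groups by a linear model with moderated, trended variance, for the 11029 genes that reached 1 FPKM in 3 or more minipigs, and P was adjusted by Benjamini-Hochberg. The pseudocount makes differences of low genes too small. For a single gene, the smallest two-sided P of an exact permutation test of 3 against 3 minipigs is 0.1. The results were recomputed in 14 other ways: quantile normalization, scaling to equal medians, testing every gene or those from 5 FPKM up, rescaling without mitochondrially encoded genes, a pseudocount of 0.1, unmoderated variance, sample weights and the 6 omissions of 1 minipig. The limma fit was tested on simulated data, and the other steps were not. Plots were drawn in matplotlib 3.10.9 (Python 3.11.15).

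The transcripts and lists were chosen with earlier results of these data known. Named genes are the 10 transcripts, the DEGs of each list up to 5 by P (or its gene with the smallest P), the receptors and HSD11B1, relatives of KLF9, KLF15, SGK1, TSC22D3 and CEBPD above a mean of 10 FPKM and the 5 genes most like and most unlike the mean z-score. ASCC1, FKBP4, PER1, NFKBIA, PDK4, DUSP1, AGT and GADD45A, and genes named only as not tested or as no DEG, fall outside this rule and were chosen after their values were seen. Lists were described by counts and medians alone. Promoter and protein sequences were not used here.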

Additional observations from a re-analysis of the deposited data

How the results depend on the processing

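Over 14 alternative settings, the log2 difference of 9 of the 10 transcripts stayed below 0. SGK1 changed sign, to 0.0022 with median scaling, 0.024 with quantile normalization, 0.021 without mitochondrially encoded genes, 0.076 with sample weights, and values from -0.29 to 0.20 with each minipig left out in turn (0.12 without sham 1, 0.00068 without sham 2, 0.026 without DAC 4 and 0.20 without DAC 5). The median of the 10 was between -0.49 and -0.32. Upregulated DEGs over all genes fell from 358 to 165 with a minimum of 5 FPKM, where fewer genes were tested. Leaving out each minipig gave 241 to 470 upregulated and 359 to 674 downregulated DEGs, with 359 without sham 1 and 387 without sham 3. Among the other glucocorticoid-induced genes, the number of upregulated DEGs fell to 0 with the variance of each gene on its own and without sham 2, DAC 4 or DAC 6, a range of 0 to 1, and 6 to 10 were downregulated. The causes were not tested. The comparison was unpaired, since separate minipigs were assigned at random to the sham and DAC groups. After that assignment, minipigs with unstable heart rates were left out of both groups. The paper does not state how the sequenced minipigs were chosen from the rest. The unknown depth limits the low genes most.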

Other observations

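PDK4, which spares glucose by inhibiting pyruvate dehydrogenase and is a glucocorticoid target in muscle, was singled out after its values were seen. It was at 117, 85.6 and 99.3 FPKM in sham 1, 2 and 3 and at 52.65, 138 and 27.3 FPKM in DAC 4, 5 and 6. The DAC minipigs thus lay on both sides of the sham group, in the DAC order of FKBP5, with DAC 5 the highest and DAC 6 the lowest. The sham orders differed, since sham 1 was the highest of its group for PDK4 and the lowest for FKBP5. AGT, the angiotensinogen gene, and GADD45A were also chosen after their values were seen. AGT varied widely in both groups, at 46.2, 51.2 and 124 FPKM in sham and 27.9, 102.5 and 65.6 FPKM in DAC. GADD45A was high in DAC 6 alone, at 34.2 FPKM against 15.0 and 13.8 FPKM in DAC 4 and DAC 5 and 19.1 to 22.0 FPKM in sham, and SGK1 also peaked in DAC 6.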
